A study of Mus musculus with 4 samples.

Results

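The genes examined were those for the proteins of the mitochondrial ribosome, taken as every gene whose symbol was Mrpl or Mrps followed by a number and at most 1 letter. This rule found 77 of the 24418 genes listed. RNA had been sequenced from regulatory T (Treg) cells sorted from lymph nodes and spleen of the Foxp3 YFP-Cre strain, whose Foxp3 locus also encodes yellow fluorescent protein fused to Cre recombinase, so that all samples carried the reporter. Sorted cells were held for 3 h with 100 ng/mL thymic stromal lymphopoietin (TSLP), a cytokine of epithelial cells, or with PBS as its control, with 2 libraries in each group (PBS 1, PBS 2, TSLP 1 and TSLP 2). The methods give an age of 8 to 12 weeks for the mice of the study, matched for sex. The sources used here do not say which sex these samples had, nor whether the 2 libraries of a group came from separate mice or cultures, so the p-values measure only the spread between these libraries, which may be technical. The deposited values, called normalized counts below, are read counts scaled by the size factor of their library, and the reads recovered from them numbered 11328132 (PBS 1), 10724392 (PBS 2), 11761234 (TSLP 1) and 10271571 (TSLP 2). A count of 0 allows up to 3 reads, or 0.255 to 0.292 cpm (reads relative to all reads on genes of that library), a limit for counting error only. PBS 1 stood apart from the other libraries in markers of Treg and T cells, in both directions, with all values given below. Foxp3 was at 222 cpm in PBS 1 against 407 to 472 in the others, whereas Tnfrsf18 was at 532 against 348 to 427. Medians of log2 fold changes, and single fold changes that moved by over 1.5 times without PBS 1, are therefore also given without it.

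The mitochondrial ribosome translates the few proteins encoded in mitochondrial DNA, all of them subunits of the respiratory chain and of ATP synthase. Its RNAs are transcribed in the mitochondrion, whereas its proteins are encoded in the nucleus, made in the cytosol and imported. Many have counterparts in bacterial ribosomes, and the rest are found only in mitochondria. Activated T cells, Treg cells among them, draw on mitochondrial respiration, for which this ribosome is needed. With these libraries the study asked which signaling pathways beside JAK-STAT respond to TSLP in Treg cells.

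Of the 77 genes, 50 encode proteins of the large subunit, among them Mrps18a and Mrps30, whose products sit in the large subunit despite their names. A further 26 encode proteins of the small subunit, and the product of Mrps36 is now known as a part of the oxoglutarate dehydrogenase complex. The genes lay on 17 chromosomes of the mm10 genome, with 10 on chromosome 11 and 8 on chromosome 17. The filter on low values, a normalized count of 10 or more in 2 or more libraries, was passed by 76 of them, and these were compared. The exception was Mrps36, with 20 reads (PBS 1), 8 (PBS 2), 0 (TSLP 1) and 1 (TSLP 2). Together its PBS libraries had 28 reads and its TSLP libraries had 1, a ratio of 27.8 after scaling by size factors (exact 95% interval 4.60 to 1138, for counting error only).

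Promoter sequences are shown for 2 members that were among the 6 with the highest normalized counts and held a motif of a factor known to drive nuclear genes for mitochondrial proteins. Each is the 120 bases before the transcription start in RefSeq (GRCm38.p6, the same build as mm10), 5′ to 3′ on the strand of the gene, with the motif in capitals. The motif is that of nuclear respiratory factor 1 (NRF1) for Mrpl9 on the plus strand of chr3:94443216-94443335, with 18 bases between it and the start. It is an ETS site, to which the factor GABPA binds, for Mrpl43 on the minus strand of chr19:45006443-45006562, with 4 bases between it and the start.
Mrpl9: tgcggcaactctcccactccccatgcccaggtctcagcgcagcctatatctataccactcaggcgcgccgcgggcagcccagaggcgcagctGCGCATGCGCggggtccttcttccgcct
Mrpl43: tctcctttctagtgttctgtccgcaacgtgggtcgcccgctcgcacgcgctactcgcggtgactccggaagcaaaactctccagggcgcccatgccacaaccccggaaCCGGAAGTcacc
Promoter windows of 300 bases, from 250 before to 50 after a start, were found in RefSeq for 68 of the 77 genes, in 74 windows. Searched on both strands, the ETS motif CCGGAAGT was present in 12 of these windows (16.2%), against 3.89% of all 32851 windows. The motif AAGATGGC of the factor YY1 was likewise in 12 (16.2%, against 2.75%), the NRF1 motif, in the letters shown for Mrpl9, in 3 (4.05%, against 0.971%) and the E-box CACGTG in 7 (9.46%, against 7.15%). These 7 windows belonged to 5 genes (7.35% of the 68, against 8.09% of all genes with a window), since overlapping windows of Mrpl2 held the same site. At least 1 of the ETS, YY1 and NRF1 motifs was held by 25 genes and 2 of them by Mrpl32 and Mrps27. A match describes the letters of a window, and binding was not measured.

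The normalized count of the 76 genes, as a mean of the 4 libraries, ran from 34.7 to 962 with a median of 191, where it was 318 over all 11392 genes that passed the same filter. This is the depth behind the values and not a level, since it is not scaled for length. A mean of at least 100 was reached by 63 of them. As RPKM, that is reads relative to the length of the main transcript and to all reads on genes, computed here with GENCODE transcript lengths, levels ran from 1.69 to 104, with a median of 12.5 and quartiles of 6.16 and 21.0. The highest level by RPKM was that of Mrps6 (104), followed by Mrpl52 (75.9), Mrpl33 (65.4), Mrpl9 (49.4) and Mrpl30 (45.4), and the lowest were Mrpl47 (1.69), Mrpl17 (2.13), Mrpl48 (2.26) and Mrps25 (2.37). By these lengths the highest level was 61.6-fold above the lowest, for proteins of a single particle. The length used was that of the longest best-ranked annotated transcript, and whether these cells made it was not checked. It was 846, 418, 478, 1612 and 969 bases for the highest genes in the order given. For the lowest it was 3364, 7300, 4285 and 6073 bases. What part these lengths had in the range was not tested.

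By normalized count, Mrps6, for a protein of the platform of the small subunit, had the most reads of the family, with 1258 (PBS 1), 789 (PBS 2), 918 (TSLP 1) and 884 (TSLP 2). Mrpl9, for a large subunit protein with a bacterial counterpart, had 1228, 751, 753 and 737 in the same order. Both genes were highest in PBS 1, and their other 3 libraries lay close together. Mrpl43 (619, 511, 350 and 540), Mrpl30 (709, 351, 385 and 471) and Mrps7 (571, 380, 491 and 343) had their highest value in PBS 1 as well, whereas Mrpl24 was lowest there.

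Comparing Treg cells held with TSLP to those held with PBS, 0 of the 76 genes and 0 of all 11392 genes tested had an adjusted p under 0.05 by limma with Benjamini-Hochberg adjustment, with 0.9999 as the smallest adjusted p. At an unadjusted p under 0.05 there were 2 of the 76, both higher with TSLP, beside 1.69% of all genes (192 genes), with 0.772% of all genes higher and 0.913% lower. edgeR's quasi-likelihood test on the recovered reads also gave 0 adjusted calls and 2 members at an unadjusted p under 0.05, and DESeq2 gave 0 and 0. Over all genes each of these tools gave 0 adjusted calls and 234 genes at an unadjusted p under 0.05. The log2 fold change, TSLP against PBS on the scale of log2(normalized count + 1), was under 0.5 in size in 55 of the 76 genes, and its standard error ran from 0.28 to 1.49 with a median of 0.45. On this scale the change of a gene with few reads is understated. The fold change was smaller than its own standard error in 55 genes and smaller than 2 standard errors in 73.

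Mrpl28 and Mrpl24 were the 2 genes with an unadjusted p under 0.05, and both encode large subunit proteins with bacterial counterparts. Mrpl28, on chromosome 17 (mm10, 26123500 to 26126613, plus strand), had a normalized count of 241 (PBS 1), 137 (PBS 2), 335 (TSLP 1) and 366 (TSLP 2). Its TSLP values both exceeded the PBS values and lay close to each other. The means were 189 ± 73.7 with PBS and 351 ± 21.5 with TSLP (SD, n = 2), and the log2 fold change was 0.94 ± 0.39 (standard error; limma, unadjusted p = 0.0373, adjusted p = 0.9999). Mrpl24, on chromosome 3 (87919506 to 87923672, plus strand), had 334, 523, 587 and 809 in the same order. Its groups did not overlap either, although PBS 2 and TSLP 1 were near each other, and its log2 fold change was 0.72 with a standard error of 0.32 (limma, unadjusted p = 0.0497, adjusted p = 0.9999). Without PBS 1, the library with its lowest value, the log2 fold change of Mrpl24 was 0.40, and that of Mrpl28 was 0.54 without PBS 2. Over 16 settings, that of the report included, the unadjusted p was under 0.05 in 11 for Mrpl28 and in 9 for Mrpl24. With DESeq2 and in the fit with no trend of the variance, neither gene kept an unadjusted p under 0.05. Of the exon bases of Mrpl24, 594 of 2255 are shared with Rrnad1 on the other strand, and whether the counting used strand was not given in the sources used here.

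Among the genes with a mean normalized count of at least 100, the next largest positive log2 fold changes were those of Mrpl21 (0.56), Mrpl50 (0.53), Mrpl48 (0.44) and Mrps10 (0.43). Mrpl50, for a protein found only in mitochondrial ribosomes, had normalized counts of 323 and 206 with PBS and 279 and 496 with TSLP, so that its groups overlapped. In Mrpl48 the groups did not overlap, with 88.2 and 89.0 against 104 and 140. Its log2 fold change was 0.22 without TSLP 2 and 0.65 without TSLP 1. Mrpl21 had 74.6 in PBS 1 and Mrps10 had 69.8, the lowest of the 4 libraries in each, while PBS 2 exceeded TSLP 1 in both. Without PBS 1 the log2 fold change was 0.23 for Mrpl21, 0.15 for Mrps10 and 0.85 for Mrpl50. In the same order it was 0.25, 0.25 and 0.11 without TSLP 2, and 0.87, 0.62 and 0.94 without TSLP 1. That of Mrpl50 was 0.20 without PBS 2.

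The largest negative log2 fold changes in this range were those of Mrps26 (−0.90), Mrps16 (−0.86), Mrpl54 (−0.85), Mrpl1 (−0.75), Mrps15 (−0.70) and Mrps34 (−0.67). Mrps26, for a small subunit protein of mitochondria only, had 435 and 240 with PBS against 213 and 140 with TSLP, without overlap and with a standard error of 0.42 (limma, unadjusted p = 0.0614). Mrpl54 (304 and 182 against 116 and 146) and Mrpl1 (183 and 146 against 89.5 and 105) did not overlap between the groups either. Without PBS 1 the log2 fold change was −0.47 for Mrps26, −0.48 for Mrpl54 and −0.59 for Mrpl1. Mrps16, the counterpart of a bacterial small subunit protein, did, with 542 and 173 against 267 and 106. Its log2 fold change was −0.04 without PBS 1 and −0.20 without TSLP 2. Mrps15 (359 and 162 against 123 and 178) and Mrps34 (481 and 232 against 245 and 179) likewise had a single high value, in PBS 1, and without it their log2 fold changes were −0.13 and −0.15. Mrps34 shares 1309 of its 2064 exon bases with Mapk8ip3 on the other strand and 763 with Nme3 on its own, so that its reads cannot be told apart from theirs with certainty.

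**Figure D1:**
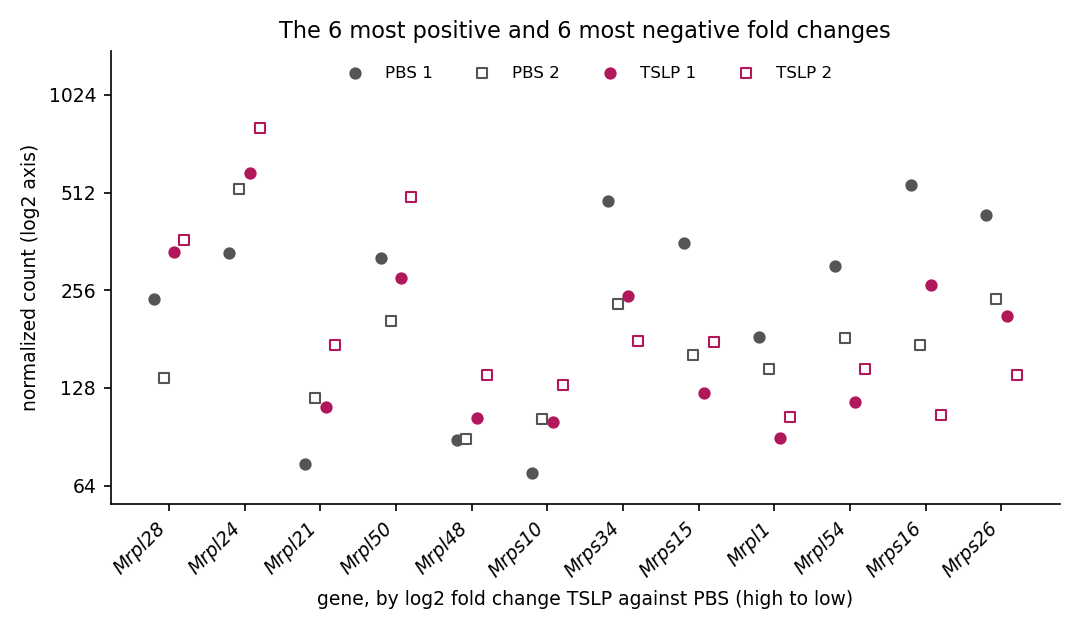
Normalized count (log2 axis) of the 6 most positive and 6 most negative log2 fold changes, TSLP against PBS, among the 63 genes with a mean of at least 100, with 1 point for each of the 4 libraries. Both TSLP points lie above both PBS points for Mrpl28, Mrpl24 and Mrpl48 and below them for Mrps26, Mrpl54 and Mrpl1, and PBS 1 is the highest point of all 6 genes with a negative fold change.

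Of the 76 tested genes, those with the lowest mean normalized counts were Mrps33, Mrps28, Mrpl23 and Mrpl27. Mrps33 had 80, 27, 1 and 32 reads in PBS 1, PBS 2, TSLP 1 and TSLP 2, and its log2 fold change was −2.52 (standard error 1.49; limma, unadjusted p = 0.126). TSLP 1, with its single read, lay far below the other 3 libraries, and the log2 fold change was −0.45 without TSLP 1 and −1.78 without PBS 1. Mrps28 (22, 47, 42 and 58 reads), Mrpl23 (64, 12, 24 and 91) and Mrpl27 (80, 27, 55 and 73) overlapped between the groups. The 3 paralogs of the bacterial protein S18 differed in their pattern over the libraries. Mrps18c, which stands nearest to the bacterial protein, had normalized counts of 335, 188, 129 and 256.0, and Mrps18a was almost level at 130, 124, 107 and 134. Mrps18b had 23.3, 58.0, 49.9 and 171, the largest positive log2 fold change of the family (1.31, standard error 0.82, unadjusted p = 0.143 by limma). It was 0.43 without TSLP 2 and 0.67 without PBS 1.

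As a family, 25 genes were higher and 51 (67.1%) were lower with TSLP, where 48.8% of all genes were lower. The median log2 fold change was −0.18, against 0.01 over all genes. In 5 members (6.58% of the 76, against 14.5% of all genes) both TSLP values exceeded both PBS values, namely in Mrpl24, Mrpl28, Mrpl4, Mrpl48 and Mrps23. They were below both in 10 members (13.2% of the 76, against 14.4% of all genes), namely Mrpl1, Mrpl22, Mrpl33, Mrpl37, Mrpl39, Mrpl40, Mrpl54, Mrps24, Mrps26 and Mrps35. Clean separation of the groups was thus no more common among these genes than elsewhere. The mean of the TSLP libraries was below PBS 1 in 62 members but above PBS 2 in 47, with a median difference of −0.40 to PBS 1 and 0.11 to PBS 2. Without PBS 1 the median log2 fold change turned to 0.11, and 29 members were lower with TSLP.

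By subunit, 18 of 50 large subunit genes were higher and 32 were lower (median log2 fold change −0.12), and 7 of 26 small subunit genes were higher and 19 were lower (−0.28). Without PBS 1 these medians were 0.16 and 0.05. Large subunit genes with bacterial counterparts were evenly split, with 14 higher and 15 lower (median −0.05), while of the large subunit genes found only in mitochondria 4 were higher and 17 were lower (−0.18). Of the small subunit genes, 3 with bacterial counterparts were higher and 13 lower (−0.25), and 4 of those found only in mitochondria were higher and 6 lower (−0.39). Without PBS 1 the large subunit genes were 20 higher and 9 lower (0.17) with bacterial counterparts and 13 higher and 8 lower (0.06) without, and the small subunit genes were 9 higher and 7 lower (0.05) and 5 higher and 5 lower (−0.03). Mrps18a and Mrps18b, paralogs of a bacterial protein, were counted here and below with the genes found only in mitochondria. The differences between these classes were not tested.

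The libraries of a group differed from each other more than the groups did. The reads on all 77 genes summed to 1996 cpm (PBS 1), 1353 (PBS 2), 1357 (TSLP 1) and 1643 (TSLP 2). PBS 2 and TSLP 1 were almost equal, and PBS 1 was 1.48-fold above PBS 2. The means were 1674 ± 455 cpm with PBS and 1500.1 ± 202 cpm with TSLP (SD, n = 2), a difference of 174 cpm that was smaller than either SD.

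**Figure D2:**
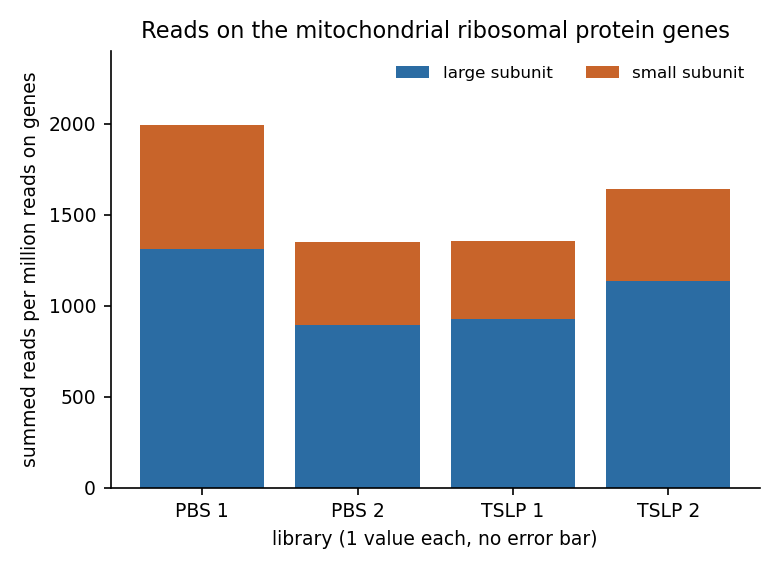
Reads on the large subunit genes and on the small subunit genes, summed as cpm, in each of the 4 libraries (1 value each). The large subunit genes sum to 1311, 895, 927 and 1135 and the small subunit genes to 683, 457, 430.1 and 508 in PBS 1, PBS 2, TSLP 1 and TSLP 2, highest in PBS 1 for both.

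Each library was then set against the mean of the other 3 on the log2 scale, as a description with no test, since PBS 1 was singled out with earlier results of these data known. The median log2 ratio of the 76 genes was 0.51 (PBS 1), −0.21 (PBS 2), −0.21 (TSLP 1) and 0.16 (TSLP 2), whereas the medians over all genes lay between 0.01 and 0.04. In PBS 1, 61 of the 76 genes (80.3%) were above the mean of the other libraries, where 51% of all genes were. The middle of the family, from the lower to the upper quartile, ran from 0.12 to 0.81, and that of all genes from −0.45 to 0.44. PBS 1 exceeded the other libraries at least 2-fold in 13 members, where 8.74% of all genes did so, and was at least 2-fold below them in 2, where 11.5% of all genes were. PBS 1 was the highest of the 4 libraries in 48 members (63.2%, against 32.4% of all genes). TSLP 2 was the highest in 21 (27.6%, against 23.4%), PBS 2 in 5 (6.58%, against 23.3%) and TSLP 1 in 2 (2.63%, against 20.8%). The 5 genes highest in PBS 2 were Mrpl19, Mrpl39, Mrpl47, Mrps11 and Mrps21, and the 2 highest in TSLP 1 were Mrpl4 and Mrps27.

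**Figure D3:**
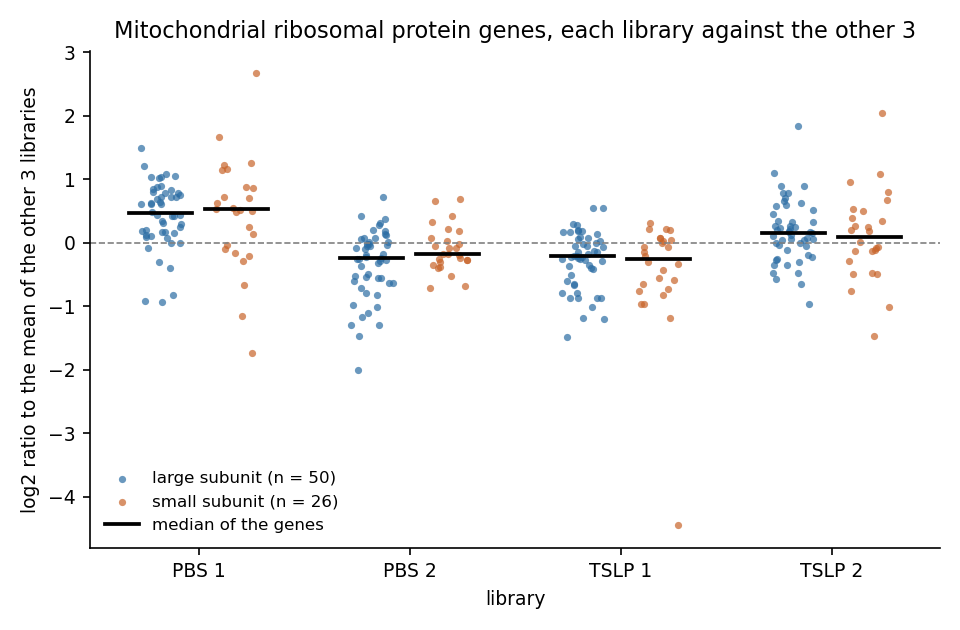
Log2 ratio of each library to the mean of the other 3, on log2(normalized count + 1), for 50 large and 26 small subunit genes, with 1 point for each gene and a line at each median. Both subunits sit above 0 in PBS 1 (medians 0.46 and 0.53) and below it in PBS 2 and TSLP 1, and the lowest point, in TSLP 1, is Mrps33.

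Among genes with a mean normalized count of at least 100, the log2 ratio of PBS 1 to the other libraries was highest for Mrps16 (1.67), Mrpl46 (1.499), Mrps25 (1.27), Mrps15 (1.23), Mrpl41 (1.21) and Mrps26 (1.17). Mrpl46, for a large subunit protein of mitochondria only, had normalized counts of 454 in PBS 1 and 143, 132 and 216 in the others, and Mrpl41, a further such protein, had 308 against 76.0, 167 and 184. In both, all 3 other libraries lay far below PBS 1. Mrps25 had 275 against 98.0, 95.2 and 158, but 4590 of its 6576 exon bases are shared with Nr2c2, a nuclear receptor gene on the other strand. The ratio was lowest for Mrpl24 (−0.91), Mrpl21 (−0.82), Mrps10 (−0.66) and Mrpl36 (−0.39). Large subunit genes found only in mitochondria had a median of 0.62 and those with bacterial counterparts 0.44, and for the small subunit the medians were 0.51 and 0.53. Exons of 27 genes overlapped those of a gene on the other strand, such as Mrpl43 with Twnk (507 of 1520 bases) and Mrpl46 with Mrps11 (173 bases), and those of 8 genes overlapped a gene on the same strand. Exons of 45 of the 77 genes overlapped no other gene, and the 44 of these that were tested had a median ratio of 0.49 and a median log2 fold change of −0.19. Without PBS 1 that median was 0.13, with 27 higher and 17 lower.

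A pair of other gene groups, for cytosolic translation and for respiration, was set beside the family. The proteins of the cytosolic ribosome make all other proteins of the cell, and the nuclear-encoded subunits of the respiratory chain join those that the mitochondrial ribosome makes. PBS 1 was the highest library in 76 of 79 cytosolic ribosomal protein genes (96.2%) and in 49 of 71 respiratory chain genes (69%), with median log2 ratios of PBS 1 of 0.70 and 0.49. Their summed levels were 64654 cpm (PBS 1), 36494 (PBS 2), 40082 (TSLP 1) and 43630 (TSLP 2) for the cytosolic ribosome and 6377, 4477, 4481 and 5137 for the respiratory chain. PBS 1 stood highest and PBS 2 lowest in both, as in the family. The highest normalized counts were those of Rpl4 (41778, 27141, 30141 and 31360) and Rps3 (40780, 22972, 25284 and 27242) in the cytosolic ribosome. In the respiratory chain list they were those of Atp5b (12180, 8386, 9311 and 9298) and Atp5a1 (8575, 6152, 6928 and 7623), both for subunits of ATP synthase. All 4 genes were highest in PBS 1. For TSLP against PBS, the median log2 fold change was −0.20 for the cytosolic ribosome (4 higher, 75 lower) and −0.22 for the respiratory chain (17 higher, 54 lower). Without PBS 1 these medians were 0.21 and 0.07. At an unadjusted p under 0.05 by limma there were 0 of 79 and 1 of 71 genes, beside 1.69% of all genes. The single gene was Uqcrq, a subunit of complex III, with normalized counts of 605 and 378 with PBS and 313 and 205 with TSLP (log2 fold change −0.92, unadjusted p = 0.0333 and adjusted p = 0.9999 by limma). Without PBS 1 its log2 fold change was −0.58.

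**Figure D4:**
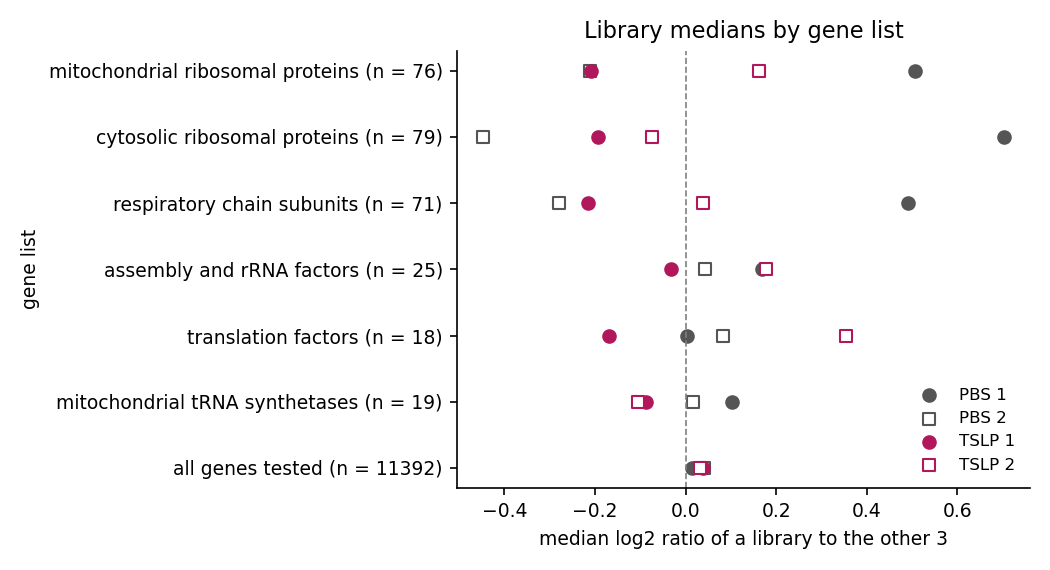
Median log2 ratio of each library to the other 3, with 1 point for each library, for the mitochondrial ribosomal protein genes, 5 other lists and all genes tested, with the number of genes tested in each list. PBS 1 lies far to the right for both kinds of ribosomal protein genes and for the respiratory chain (0.51, 0.70 and 0.49), and the 4 libraries lie close to 0 for all genes.

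Other genes of mitochondrial translation were followed as well. Of 6 ribosomal proteins with other names (Dap3, Ptcd3, Chchd1, Aurkaip1, Gadd45gip1 and Ict1), 2 were higher and 4 lower with TSLP, the median log2 fold change being −0.04 and the median log2 ratio of PBS 1 being 0.57. Without PBS 1, 4 were higher and 2 lower, and the median turned to 0.14. Dap3, for a GTP-binding protein of the small subunit, had normalized counts of 873, 763, 823 and 929 in PBS 1, PBS 2, TSLP 1 and TSLP 2, and Aurkaip1 had 930, 463, 511 and 764. Dap3 thus varied little, whereas Aurkaip1 was highest in PBS 1. For 25 factors of ribosome assembly and ribosomal RNA, 18 translation factors and 19 mitochondrial aminoacyl-tRNA synthetases, the median log2 ratio of PBS 1 was 0.17, 0.00 and 0.10, and 12, 8 and 10 genes were higher with TSLP (median log2 fold changes −0.02, −0.03 and 0.02). Without PBS 1 these medians were −0.15, −0.10 and 0.02. Dhx30 (931, 1320, 1109 and 1186) and Grsf1 (774, 806, 594 and 751) had the highest normalized counts among the assembly factors and Trmt10c (781, 462, 595 and 795) and Oxa1l (582, 671, 640 and 648) in the translation list. Among the synthetases Lars2 and Kars had the highest, Kars, which serves both the cytosol and mitochondria, with 1287, 1105, 1256 and 1096. By limma, 3 of these genes had an unadjusted p under 0.05, all with an adjusted p of 0.9999. Fastkd2, which binds the ribosomal RNA of mitochondria, had 15.5 and 43.0 with PBS and 111 and 98.2 with TSLP (log2 fold change 1.97, unadjusted p = 0.0270 by limma). Nsun4, a methyltransferase of mitochondrial ribosomal RNA, had 611 and 766 against 399 and 489 (−0.63, unadjusted p = 0.0479 by limma). Lars2, the leucyl-tRNA synthetase of mitochondria, had 5660 and 2775 against 1621 and 2205 (−1.07, unadjusted p = 0.0109 by limma), with PBS 1 far above the other libraries. Without PBS 1 the log2 fold change was −0.55 for Lars2 and 1.26 for Fastkd2.

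Of 12 regulators of mitochondrial transcription and biogenesis, 7 were higher and 5 lower, and their median log2 fold change was 0.03 (−0.01 without PBS 1). Among them Yy1, the factor of the motif searched above, had 2417, 2307, 2295 and 2450, and Gabpb1, a partner of GABPA, had 2071, 2054, 1911 and 2429. Genes encoded in mitochondrial DNA were not analysed here.

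Transcript length moved with the library ratios. Over 10945 genes with a known length, the Spearman correlation between transcript length and the log2 ratio was −0.39 (PBS 1), 0.24 (PBS 2), 0.21 (TSLP 1) and 0.08 (TSLP 2), and that with the log2 fold change was 0.26. These are descriptions across genes, which share their libraries and are not independent. The family is short, with a median of 1302 bases against 2965 over all genes, and so are the genes of the cytosolic ribosome (887) and the respiratory chain (875), whereas the translation factors (2662) and synthetases (2400) are longer. Among genes under 1000 bases, the median log2 ratio of PBS 1 was 0.79 for 24 members and 0.56 for all 733 genes, and from 1000 to under 2000 bases it was 0.30 for 28 members and 0.33 for all 2304 genes. From 2000 bases upward it was 0.46 for 24 members, where it was −0.11 for all 7908 genes. Of these members 21 (87.5%) were above the other libraries, against 42.6% of all. A member can enter this class through a long annotated transcript, as with Mrpl17 (7300 bases) and Mrps25 (6073 bases). Which transcripts the cells made was not checked, a limit of every value by length here. Within the 76 members the correlation of length with the ratio of PBS 1 was −0.16, and with the log2 fold change 0.006. With the trend over length removed in each library, the median log2 ratio of PBS 1 dropped from 0.51 to 0.23, and 49 members (64.5%, against 50.6% of all genes) lay above the other libraries. PBS 2 then stood at −0.04, TSLP 1 at −0.10 and TSLP 2 at 0.16. The medians of the cytosolic ribosome and the respiratory chain in PBS 1 were then 0.22 and 0.05. Of the named genes, Mrps15 and Mrpl41 then had log2 ratios of 0.75 and 0.67, and Mrpl21, Mrps10 and Mrpl36 had −1.24, −1.11 and −0.87. What part length or another property of the libraries had in the high values of PBS 1 was not tested.

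**Figure D5:**
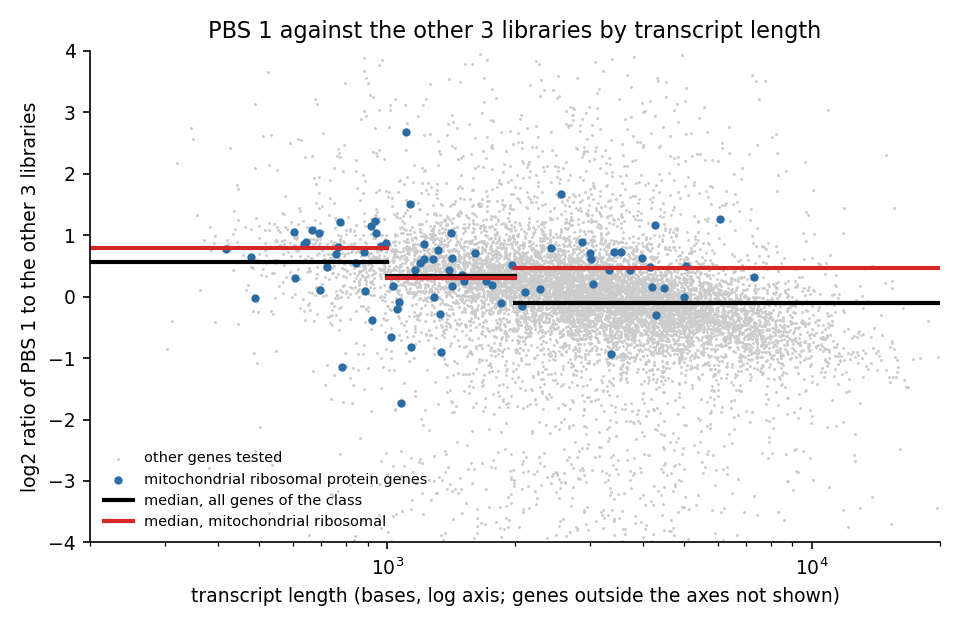
PBS 1 against the other 3 libraries, as a log2 ratio, plotted over transcript length (log axis, bases) for the genes tested (grey) and the mitochondrial ribosomal protein genes (blue), with medians for 3 length classes. The median of all genes falls from 0.56 through 0.33 to −0.11 with length, and that of the family is 0.79, 0.30 and 0.46.

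Markers of the cells moved between the libraries too. Foxp3, the defining factor of Treg cells, was at 222 cpm in PBS 1 and at 472, 407 and 470 in PBS 2, TSLP 1 and TSLP 2, and Ikzf2, for the factor Helios, was at 568 and at 976, 996 and 953. Il2ra, for a chain of the interleukin-2 receptor, was at 342 in PBS 1 and at 446, 433 and 498 in the others, and the 7 markers of Treg and T cells, led by Ctla4, summed to 3692, 4223, 4157 and 4463 cpm. All 7 were present in every library, and PBS 1 was lowest in 5 of them (Foxp3, Ikzf2, Il2ra, Cd4 and Cd3e) and highest in Ctla4 and Tnfrsf18, the latter at 532 cpm against 348 to 427. The 2 markers of CD8 T cells, led by Cd8b1, summed to 13.4, 7.83, 8.84 and 11.97 cpm in the same order, the 4 of B cells, led by Cd79b, to 1.32, 10.4, 4.08 and 10.6, and the 5 of myeloid cells, led by Cd68, to 17.6, 11.9, 8.59 and 8.76. Within the last list Cd68 was at 15.4, 6.15, 5.02 and 1.56 cpm, highest in PBS 1, and Lyz2 at 0.0883, 4.01, 3.15 and 3.89 cpm, lowest there. Ms4a1, a B cell marker, had reads in PBS 2 only, and Cd79a had none in PBS 1. Adgre1, which marks macrophages, was at 0 in all libraries, as were the 4 haemoglobin genes among 6 erythroid markers, whose sum was at most 1.501 cpm. Their part in the values of the mitochondrial ribosomal protein genes was not tested, and fewer cells of a type and less RNA per cell cannot be told apart in such libraries.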

How the data were processed

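RNA from 2 PBS and 2 TSLP samples was sequenced as 50-base single-end reads from a strand-marking kit. The authors mapped reads to mm10 with Hisat2 and counted them with HTSeq. The annotation and the strand setting are not given in the sources used here. The deposited values are a signal, namely counts divided by DESeq2 size factors (0.957 to 1.0615). All values were whole reads within 0.01 after division by the smallest step, so reads were recovered. In the deposited values 27 gene names had turned into dates.

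The main test was limma 3.58.1 (lmFit and eBayes with a trend of the variance over the level, an option chosen after seeing the data) on log2(normalized count + 1), two-sided, over the 11392 genes that reached a normalized count of 10 in 2 or more libraries, with Benjamini-Hochberg adjustment. edgeR 4.0.16 and DESeq2 1.42.0 on recovered reads, TMM, equal medians, pseudocounts of 0.5 and 10, no filter and a minimum of 100, a replicate block, removal of the length trend (lowess per library, span 0.3), no variance trend (added after seeing the data) and leaving out each library were alternatives. Tested on simulated data of the same design with 200 genes made to change, limma called 24 at a log2 change of 1 and 128 at 2, with 3 unchanged genes called at each. At a log2 change of 4 it called 172, with 27 unchanged genes called.

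Members, lists, markers and motifs were chosen with earlier results of these data known. Named members were those with an unadjusted p under 0.05, the 6 largest fold changes each way, the 6 highest and 4 lowest counts, the 6 highest and 4 lowest ratios of PBS 1, the Mrps18 paralogs and the untested gene, the fold changes and ratios among means of at least 100. From other lists, genes with an unadjusted p under 0.05 and the 2 with the highest normalized counts were named. Other genes were named as the extremes of RPKM or as the members of a count. Positions, transcript lengths and exon overlaps came from GENCODE M21 (mm10), and promoters from RefSeq. The length of a gene was that of the longest among its best-ranked transcripts (APPRIS principal, then basic, then others). Analyses used R 4.3.3 and Python 3.11.15.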

Additional observations from a re-analysis of the deposited data

How the results depend on the processing

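No gene had an adjusted p under 0.05 by limma or under any of 15 other settings, edgeR and DESeq2 among them. The number of genes with an unadjusted p under 0.05 was 358 without a filter, 427 with no trend of the variance (chosen after seeing the data) and 79 to 1858 when each library was left out in turn, the highest without PBS 2 and the lowest without TSLP 2. With a pseudocount of 0.5 that number was 171. A group reduced to 1 library is assumed to vary like the other group, so counts without 1 library are descriptions only. The counts of members given next are part of these counts over all genes and are to be read beside them. Of the mitochondrial ribosomal protein genes, 0 had an unadjusted p under 0.05 with DESeq2 and with no trend of the variance, 1 with a pseudocount of 0.5, and 0 to 10 when a library was left out, 10 of them without PBS 2 and 0 without TSLP 1. The number lower with TSLP was 29 to 62 without 1 library, the lowest without PBS 1. The median log2 fold change without 1 library was −0.40 to 0.11 for the family, −0.48 to 0.051 for the small subunit and −0.10 to 0.10 for the other mitochondrial translation genes, the last highest without TSLP 1, and the causes were not tested. The lists of those genes all spanned 0 in this way, from −0.15 to 0.10 (assembly), −0.20 to 0.20 (translation factors), −0.12 to 0.05 (synthetases) and −0.45 to 0.14 (ribosomal proteins with other names). The median log2 ratio of PBS 1 was 0.40 to 0.56 without 1 of the other libraries and 0.23 with the length trend removed.

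In the labels the replicates of the groups share only a number, and whether they were paired is not given. The paper used a paired t-test for its quantitative PCR under the same conditions. The correlation of the deviations was 0.00072 over 11392 genes, which cannot show whether libraries were paired. The limma fit with the number as a replicate block gave 0 adjusted calls, 258 genes and 3 members at an unadjusted p under 0.05. The log2 fold changes of the 12 members plotted and of Fastkd2, Nsun4, Lars2 and Uqcrq kept their sign under all settings run for them. For Fastkd2 this leaves out the minimum of 100. All were chosen from these same data for a large fold change or a small p, so a kept sign is no support for them. That of Mrps16 was −0.04 without PBS 1. In simulated data of this design 24 of 200 genes were called by limma at a log2 change of 1. Those data held no shift of a library over many genes such as that of PBS 1. Genes with few reads, such as Mrps33 and Mrps36, are limited by depth.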

Other observations

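Of 8111 other genes with a mean normalized count of at least 100, those whose centred log2 values over the 4 libraries lay nearest to the median profile of the mitochondrial ribosomal protein genes (0.38 for PBS 1, −0.16 for PBS 2, −0.16 for TSLP 1, 0.12 for TSLP 2) were D11Wsu47e, Cactin, Fermt3, Dapp1 and Timm44, at Euclidean distances of 0.0946 to 0.101. Timm44, a part of the machinery that imports proteins into mitochondria, had normalized counts of 721, 491, 511 and 605 in PBS 1, PBS 2, TSLP 1 and TSLP 2. Fermt3, for an activator of integrins in blood cells, had 2515, 1732, 1772 and 2157. Of the family itself, Mrpl35 lay nearest to this profile, at a distance of 0.100. The likeness rests on 4 libraries, of which PBS 1 differs most.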
